A study of Homo sapiens with 8 samples.

Results

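The genes examined were 6 enzymes of proline synthesis and breakdown, PYCR1, PYCR3, ALDH18A1, PRODH, ALDH4A1 and OAT, out of 58735 genes counted. They were taken by symbol, and the set was chosen by a measured value, the log2 change of PYCR1, which was among the largest falls in the only comparison of the series. The changes of the set in that comparison are therefore given as a description, without a test. The libraries were made from total RNA of 22Rv1 cells, a single established human line of castration-resistant prostate cancer. In the control group 4 libraries came from cells given the vehicle DMSO, and in the inhibitor group 4 came from cells given PCC0208017, labelled by the submitters as blocking the kinase MARK3. Dose and duration are not analysed here, and a loss of MARK3 activity and other actions of the compound cannot be told apart. Separate cultures are not stated for the replicates, so errors and p-values cover sample-to-sample spread that may be only technical.

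Proline is made in mitochondria and cytosol from pyrroline-5-carboxylate, abbreviated P5C. ALDH18A1 forms P5C from glutamate, OAT forms it from ornithine, and the reductases PYCR1 and PYCR3 turn it into proline. In the opposite direction PRODH oxidises proline to P5C, and ALDH4A1 oxidises P5C to glutamate. The pathway ties amino acid supply to the balance of NADPH and NAD, and PYCR1 is often abundant in tumours.

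Control libraries held 12672817 to 13386143 counts, and inhibitor libraries 13517289 to 21271127. Levels are given as CPM, the counts of a gene relative to a library size adjusted with TMM factors, and changes as log2 fold changes, inhibitor minus control, ± SE, with n = 4 libraries per group. A gene was called when its adjusted p from edgeR's quasi-likelihood test was under 0.05 over the 16452 genes tested. All 7 luminal epithelial markers examined, KRT8 and KRT18 among them, were at 10 CPM or more in every library, with a summed level of 2770.4 to 2849.7 CPM in controls and 1893.7 to 1996.3 CPM with inhibitor. The 3 basal and 3 endothelial markers were under 1 CPM in every library, with PECAM1 and CDH5 at 0 counts throughout, and 3 of 4 leukocyte markers were under 1 CPM, with CD3E at 0. Of the 6 fibroblast markers, 4 were under 1 CPM. The summed level was 12.7 to 18.1 CPM in controls and 15.0 to 21.9 CPM with inhibitor, mostly from COL1A1. By group mean COL1A1 went from 11.3 to 18.0 CPM, whereas LUM went from 3.0 to 0.509 CPM. The 4 neuroendocrine markers summed to 84.8 to 99.9 CPM in controls and 83.8 to 94.3 CPM with inhibitor, nearly all from SYP. The part of these markers in the results was not tested. In bulk RNA, a smaller share of cells that express a gene and less of its RNA per cell cannot be told apart.

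Inhibitor-treated cells had less mRNA of the enzymes that make proline from glutamate and more of OAT, which makes P5C from ornithine. PYCR1 was 6.65-fold lower, PYCR3 2.61-fold lower and ALDH18A1 1.52-fold lower, whereas OAT was 1.6-fold higher. ALDH4A1, the second enzyme of breakdown, was 1.17-fold higher with overlapping libraries. PRODH, the first enzyme of breakdown, was barely detected in either group. Of the 5 genes that passed the filter on low counts, 3 were called lower and 2 higher, and PRODH did not pass it. Over all tested genes 58.0% were called, 28.3% lower and 29.8% higher, so a call as such is common in this comparison and nothing is read from the count. In 4 of the 5 tested genes the libraries of the groups did not overlap, against 51.0% of all tested genes.

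**Figure D1:**
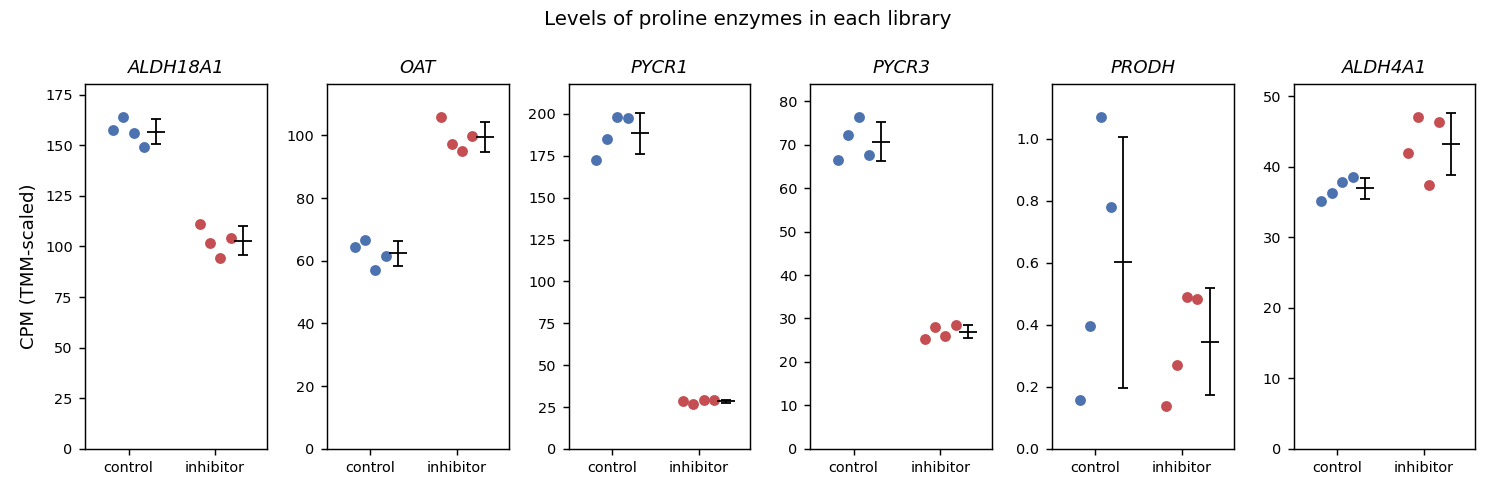
Level of each proline enzyme in CPM on the TMM scale (vertical axes start at 0 and differ between panels) for the 4 control and 4 inhibitor libraries; points are libraries in replicate order, and the black bar is the mean ± SD. All inhibitor libraries lie below all controls for ALDH18A1, PYCR1 and PYCR3 and above them for OAT, while PRODH stays at or under 1.07 CPM.

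The entry to the pathway from glutamate is ALDH18A1 (ENSG00000059573; hg38 chromosome 10, 95605941 to 95656711, minus strand), a bifunctional mitochondrial enzyme that uses ATP and NADPH. It was at 157.4, 164.0, 156.0 and 149.2 CPM in control replicates 1 to 4 and at 111.3, 101.7, 94.4 and 104.2 CPM in inhibitor replicates 1 to 4. All inhibitor libraries lay below all controls, and the lowest control was 1.34 times the highest inhibitor library. The log2 change was −0.61 ± 0.06, from 156.7 ± 6.07 to 102.9 ± 7.0 CPM (mean ± SD, n = 4).

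OAT (ENSG00000065154; chromosome 10, 124397303 to 124418976, minus strand), a mitochondrial aminotransferase, links ornithine to the proline pathway. It was at 64.3, 66.5, 57.2 and 61.4 CPM in controls and at 105.9, 97.1, 95.1 and 99.7 CPM with inhibitor. Every inhibitor library was at least 1.43 times the highest control. The log2 change was 0.67 ± 0.06, from 62.3 ± 4.02 to 99.5 ± 4.67 CPM (mean ± SD, n = 4). No other annotated gene overlapped ALDH18A1 or OAT.

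The 250 bases before the start sites of ALDH18A1 and OAT are shown together, 5′ to 3′ on the gene's strand, from RefSeq on GRCh38.p14. Of the 6 genes, 3 matched an entry there, namely ALDH18A1, OAT and ALDH4A1, and PYCR1, PYCR3 and PRODH did not. Capitals mark matches to CACGTG, the E-box bound by MYC and MAX, or to TGACGT, the core of the cyclic AMP response element, searched on both strands.
ALDH18A1, chr10:95656712-95656961, minus strand: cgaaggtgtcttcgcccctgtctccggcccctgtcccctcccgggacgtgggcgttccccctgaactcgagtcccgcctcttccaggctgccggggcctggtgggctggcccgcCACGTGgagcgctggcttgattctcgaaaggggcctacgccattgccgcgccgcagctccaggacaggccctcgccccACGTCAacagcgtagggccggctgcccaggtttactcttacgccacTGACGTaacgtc
OAT, chr10:124418924-124419173, minus strand: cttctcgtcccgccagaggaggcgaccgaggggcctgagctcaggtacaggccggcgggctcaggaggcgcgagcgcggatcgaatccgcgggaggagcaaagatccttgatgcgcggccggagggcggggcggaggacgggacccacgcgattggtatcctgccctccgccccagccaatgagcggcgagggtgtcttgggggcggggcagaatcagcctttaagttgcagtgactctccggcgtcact

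The ALDH18A1 window held 1 E-box, starting at position −136 from the start site, and 2 matches to TGACGT, on the reverse strand at −58 and on the gene's strand at −12. The OAT window and both ALDH4A1 windows in the RefSeq table held neither. None of the 4 windows held TGATGCAA, a core of the composite element bound by ATF4 with C/EBP proteins. Among 35116 windows of the same length, 6.34% held CACGTG, 7.10% held TGACGT and 0.772% held TGATGCAA; CACGTG and TGACGT share the letters ACGT but did not overlap in ALDH18A1. A match is a description of the letters, and binding was not measured here. A part of these matches in the changes was not tested.

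PYCR1 (ENSG00000183010; chromosome 17, 81932384 to 81942412, minus strand) encodes a mitochondrial reductase and showed the largest change of the set. It was at 172.4, 185.1, 198.3 and 197.6 CPM in controls and at 28.4, 27.0, 28.9 and 29.2 CPM with inhibitor, from 2202 to 2533 counts and from 407 to 600 counts per library. The groups were far apart, with the lowest control 5.91 times the highest inhibitor library. The fall of 2.73 on the log2 scale (SE 0.07) placed it 61st from the largest fall among the 16452 tested genes. Its gene model overlaps MYADML2 on the same strand over 408 exon bases, and MYADML2 was at 0.533 CPM in controls and 1.22 CPM with inhibitor (means on total counts). An antisense lncRNA, ENSG00000263585, shares 450 exon bases with PYCR1 and had 0 counts. The strand setting and the treatment of reads in shared bases are not known. Reads in the bases shared with either gene therefore cannot be assigned with certainty, and 0 counts do not show that the lncRNA was absent.

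PYCR3 (ENSG00000104524; chromosome 8, 143603210 to 143609773, minus strand) encodes the cytosolic reductase. Its levels were 66.5, 72.2, 76.4 and 67.7 CPM in controls and 25.3, 28.1, 26.0 and 28.6 CPM with inhibitor. All inhibitor libraries were below all controls, and the log2 change was −1.39 ± 0.07. It shares 15 exon bases with TIGD5 on the opposite strand, which was at 33.5 CPM in controls and 27.5 CPM with inhibitor, and with the strand setting of the counting unknown, reads in those bases cannot be told apart. PYCR1 and PYCR3 are paralogs, and the treatment of reads that match both is not stated.

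PRODH (ENSG00000100033; chromosome 22, 18912777 to 18936553, minus strand), the mitochondrial flavoenzyme that starts proline breakdown, had 2, 5, 13 and 10 counts in control replicates 1 to 4 and 2, 6, 7 and 7 in inhibitor replicates 1 to 4. These are 0.157, 0.396, 1.07 and 0.780 CPM in controls and 0.139, 0.270, 0.490 and 0.484 CPM with inhibitor. The groups overlapped, and at this depth no difference was detectable. The near-copy PRODHLP, an unprocessed pseudogene, had 8 to 17 counts per library, and PRODH shares 675 exon bases with DGCR6 on the opposite strand, so even these few counts are uncertain.

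ALDH4A1 (ENSG00000159423; chromosome 1, 18871430 to 18902724, minus strand) encodes the mitochondrial dehydrogenase that completes breakdown. It was at 35.2, 36.3, 37.8 and 38.5 CPM in controls and at 42.0, 47.1, 37.5 and 46.4 CPM with inhibitor. Inhibitor replicate 3 lay within the controls and the other 3 inhibitor libraries lay above them. The log2 change was 0.23 ± 0.08, and its call ended without inhibitor replicate 2 (0.19) or 4 (0.20).

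**Figure D2:**
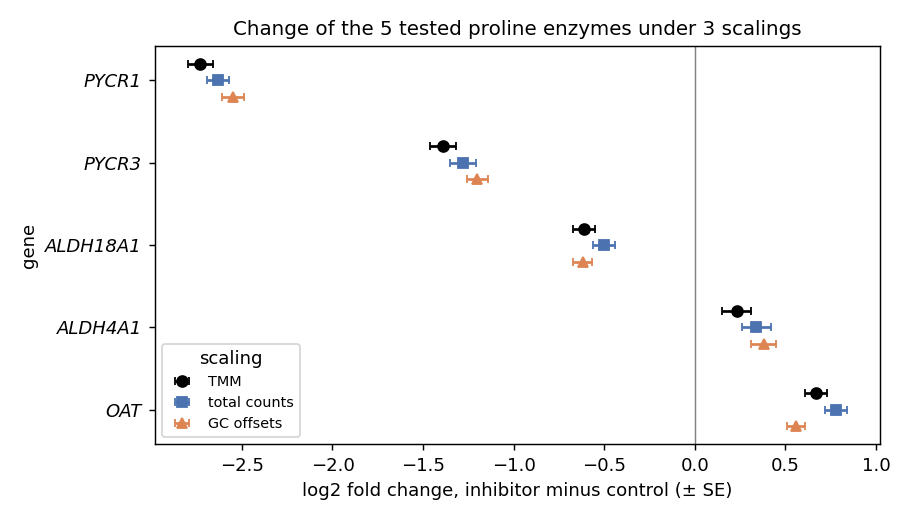
Log2 fold change, inhibitor minus control, of the 5 tested proline enzymes, with SE bars, under TMM scaling, total counts without factors, and offsets that correct every library for transcript GC. PYCR1 lies between −2.73 and −2.55, PYCR3 and ALDH18A1 also lie below 0, and OAT and ALDH4A1 lie above 0 under all 3.

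Per length, the order of the enzymes differed between the groups. In controls PYCR1 was highest at 65.3 ± 4.22 CPM per kilobase of merged exons (SD, n = 4), followed by ALDH18A1 at 41.7 ± 1.6. OAT (18.4 ± 1.17) and PYCR3 (17.9 ± 1.17) came next with overlapping libraries, then ALDH4A1 (10.2 ± 0.405) and PRODH (0.0687 ± 0.0461). With inhibitor OAT led at 29.4 ± 1.39, with libraries that overlapped those of ALDH18A1 at 27.4 ± 1.85. ALDH4A1 (11.9 ± 1.25), PYCR1 (9.82 ± 0.337) and PYCR3 (6.84 ± 0.404) followed, each apart from the next. PYCR1 thus moved from the head of the order to below ALDH4A1. On the length of the canonical transcript, ALDH4A1 and PYCR1 overlapped with inhibitor (13.8 ± 1.40 and 12.5 ± 0.450 CPM per kilobase).

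The mRNA ratio of OAT to ALDH18A1, which both encode enzymes that form P5C, was higher in every inhibitor library than in every control. Protein, enzyme activity and metabolite levels were not measured here. The ratio of OAT to ALDH18A1 per kilobase of merged exons was 0.45, 0.45, 0.41 and 0.46 in controls and 1.06, 1.06, 1.12 and 1.06 with inhibitor. On canonical transcript lengths the ratios were 0.60 to 0.68 and 1.56 to 1.66. Per length, OAT was below ALDH18A1 in all controls and above it in all inhibitor libraries on both lengths. In CPM, with no division by length, the ratios were 0.37 to 0.41 in controls and 0.95 to 1.01 with inhibitor. The ratio was thus higher with inhibitor on each scale. With inhibitor it lay above 1 in every library on both lengths, but on both sides of 1 without division by length.

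**Figure D3:**
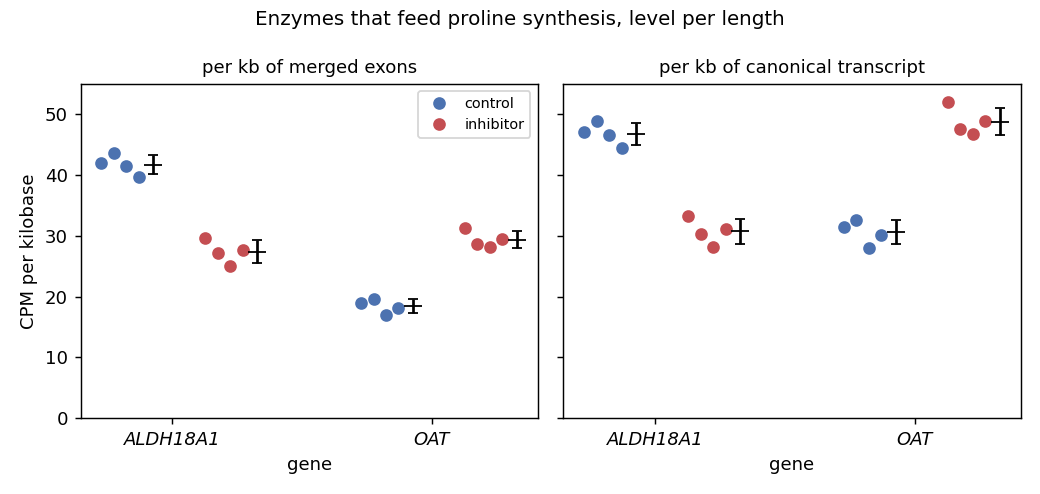
Levels of ALDH18A1 and OAT in CPM per kilobase for the 4 control and 4 inhibitor libraries, per kilobase of merged exons (left) and of the canonical transcript (right), with the mean ± SD in black. ALDH18A1 is lower and OAT higher with inhibitor, so their order per length changes between the groups.

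Other features were shared across the directions of change. All 6 genes lie on the minus strand, and ALDH18A1 and OAT share chromosome 10. Transcript GC content was 62.8% for PYCR1, 63.5% for PYCR3 and 50.8% for ALDH18A1, and 60.7% for ALDH4A1 and 42.7% for OAT. With offsets for GC content, the changes were −2.55 for PYCR1, −1.20 for PYCR3, −0.62 for ALDH18A1, 0.38 for ALDH4A1 and 0.56 for OAT. The coefficient of variation of the 5 tested genes was 3.87% to 6.49% within controls and 3.49% to 10.2% within inhibitor libraries, the highest being that of ALDH4A1 with inhibitor.

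Genes that use or carry proline moved in both directions. Of 18 genes listed, 16 were tested, with 6 higher, 6 lower and 4 not called. The median change was 0.07, against 0.02 over all tested genes, of which 29.8% were called higher and 28.3% lower. The collagen prolyl 4-hydroxylase subunit genes P4HA1 (from 38.6 ± 2.16 to 62.2 ± 4.77 CPM, 0.69 ± 0.07, adjusted p = 1.44e-08) and P4HA2 (from 5.66 ± 0.766 to 14.1 ± 1.92 CPM, 1.32 ± 0.13, adjusted p = 3.55e-09) rose. Their partner subunit gene P4HB, which also encodes protein disulfide isomerase, fell (−0.23 ± 0.05). PEPD, which encodes the prolidase that frees proline from dipeptides, rose (0.33 ± 0.07), as did the neutral amino acid transporter gene SLC38A2 (0.42 ± 0.07). SLC6A15, which encodes a transporter of proline and branched-chain amino acids, fell from 29.8 ± 5.27 to 16.1 ± 2.06 CPM (−0.90 ± 0.11, adjusted p = 4.78e-07). EPRS1, which charges tRNA with glutamate and proline, did not pass the test (from 419.6 to 406.8 CPM, −0.05 ± 0.06).

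Of 20 genes that make, carry or use glutamate and glutamine, 10 were lower, 2 were higher and 8 were not called (median −0.29), where 28.3% of all tested genes were lower, 29.8% were higher and 58.0% were called in either direction. The glutamine transporter gene SLC1A5 fell from 301.3 ± 11.7 to 126.4 ± 1.41 CPM (−1.25 ± 0.05, adjusted p = 6.24e-16). Glutamine synthetase, GLUL, fell from 390.7 ± 12.1 to 175.8 ± 11.1 CPM (−1.15 ± 0.06, adjusted p = 9.28e-15). The alanine aminotransferase genes GPT (−1.71 ± 0.11) and GPT2 (−1.28 ± 0.06) also fell. The subunit genes of glutamate-cysteine ligase, GCLC (0.35 ± 0.06) and GCLM (0.33 ± 0.07), which draw glutamate into glutathione, rose.

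Genes of arginine, ornithine and polyamine metabolism were lower in 14 of 19 tested cases and higher in 3 (median −0.65). Over all tested genes, 28.3% were called lower and 29.8% higher. Only some of the listed genes make, carry or use ornithine. AMD1, which makes the aminopropyl donor of polyamines, fell from 449.1 ± 24.1 to 140.2 ± 16.4 CPM (−1.68 ± 0.07, adjusted p = 6.87e-16). Spermidine synthase, SRM, fell by 1.54 ± 0.08 and ornithine decarboxylase, ODC1, by 0.69 ± 0.06 on the log2 scale. SLC7A1, the arginine importer (−1.02 ± 0.07), and SLC25A15, the mitochondrial ornithine carrier (from 21.8 ± 2.79 to 11.9 ± 1.17 CPM, −0.88 ± 0.10), fell too. ARG2, the mitochondrial arginase that makes ornithine, went from 7.82 to 4.44 CPM (−0.82 ± 0.15, adjusted p = 4.8e-05). OAZ2, an antizyme that lowers ODC1 protein (0.48 ± 0.06), and SAT1, which starts polyamine breakdown (0.28 ± 0.07), rose. The antizyme inhibitor gene AZIN1 was also called higher (0.20 ± 0.06, adjusted p = 0.00714). The call of AZIN1 ended with GC offsets (0.06), and its adjusted p was 0.000212 to 0.305 over the alternatives. OAT thus rose beside lower mRNA of the ornithine carrier and of ornithine decarboxylase, in a list where 14 of 19 tested genes were lower. SLC25A15 and ARG2 were named for their role after their values were seen.

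Of 14 genes of serine, glycine and asparagine synthesis and their folate cycle, 12 were lower, 1 was higher and 1 was not called (median −0.60). The shares of all tested genes called were 28.3% lower and 29.8% higher. MTHFD1L, a mitochondrial folate enzyme, fell from 46.4 ± 2.49 to 11.6 ± 1.20 CPM (−1.99 ± 0.09, adjusted p = 8.73e-16), and SHMT2 fell from 832.2 ± 23.9 to 562.7 ± 32.6 CPM (−0.56 ± 0.06). The cytosolic folate enzyme gene MTHFD1 (−0.85 ± 0.06) and the glycine decarboxylase gene GLDC (−1.19 ± 0.11) fell as well. The higher gene was CTH, a cysteine synthesis enzyme (0.55 ± 0.17, adjusted p = 0.00941), with overlapping libraries and an adjusted p of 0.0507 without control replicate 3 (0.000877 to 0.0507 over the alternatives). Asparagine synthetase, ASNS, was not called (−0.14 ± 0.15).

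Genes of NADPH and NAD supply were split, with 5 higher, 4 lower and 3 not called of 12 (median 0.00). Among all tested genes, 29.8% were called higher and 28.3% lower. The number of higher genes was 2 with GC offsets, 2 without any one of control replicates 3 and 4 and inhibitor replicates 1 and 3, and 3 without inhibitor replicate 2. NADK2, the mitochondrial NAD kinase that supplies NADPH to proline synthesis in mitochondria, was at 50.4 CPM in controls and 49.8 CPM with inhibitor (−0.02 ± 0.07, adjusted p = 0.84). NADK, its cytosolic counterpart (−0.31 ± 0.06), the mitochondrial isocitrate dehydrogenase gene IDH2 (−0.43 ± 0.06) and the malic enzyme gene ME3 (−0.96 ± 0.11) fell, and IDH1 rose (0.21 ± 0.06).

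**Figure D4:**
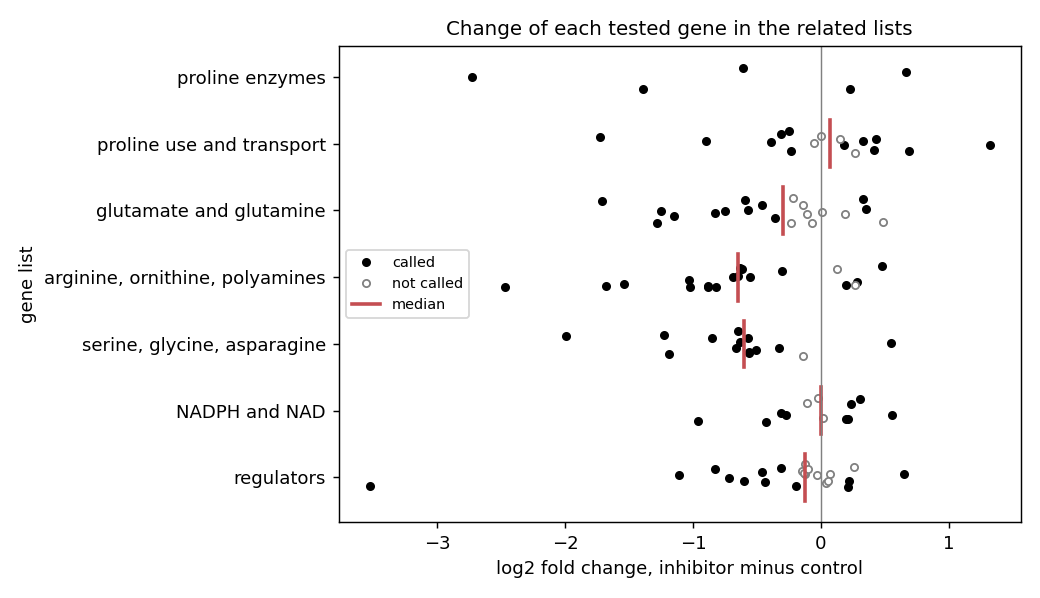
Log2 fold change, inhibitor minus control, of every tested gene in the proline enzyme set and in 6 related lists; filled points passed the adjusted p of 0.05, open points did not, and red bars are the medians of the related lists. The points of the arginine, ornithine and polyamine list and of the serine, glycine and asparagine list lie mostly below 0, and the leftmost point among the regulators is MYC.

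The regulator list held known regulators of the pathway and both regulators and response genes of amino acid stress. Of its 22 tested genes, 9 were lower and 3 higher. The other 10 were not called (median −0.12). For comparison, 28.3% of all tested genes were called lower, 29.8% higher and 58.0% in either direction. MYC, reported to raise proline synthesis genes and to lower PRODH, was at 378.3 ± 8.55 CPM in controls and 32.8 ± 2.99 CPM with inhibitor (−3.53 ± 0.07, adjusted p = 4.75e-23). ATF4, the transcription factor of the amino acid response, whose known targets include PYCR1 and ALDH18A1, fell slightly from 545.7 ± 25.9 to 478.3 ± 33.6 CPM (−0.19 ± 0.06, adjusted p = 0.00726). This call ended with total counts (−0.09, adjusted p = 0.176; 0.00224 to 0.176 over the alternatives). Its targets TRIB3 (−0.83 ± 0.06) and DDIT4 (−1.11 ± 0.11) fell, while DDIT3 (−0.12 ± 0.10), CHAC1 (−0.12 ± 0.15) and SESN2 (−0.15 ± 0.07) were not called. PPP1R15A, which reverses the phosphorylation of eIF2-alpha, rose (0.65 ± 0.08). With total counts, 6 of these listed genes were higher and 8 lower. A part of MYC, ATF4 or any other gene of this list in the changes of the proline enzymes was not tested.

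The genes whose profile over the 8 libraries was nearest to that of PYCR1 were sought among the 10275 whose mean level reached 10 CPM. Nearness was the root mean square difference of log2(CPM + 0.5) from the control mean. Among the nearest were CPNE7 at 0.108, from 152.0 ± 14.8 to 24.3 ± 1.88 CPM, and TMEFF2, a transmembrane protein gene expressed in prostate, at 0.118. SPOCK1, PPP1R1B and GRIN3A lay at 0.133 to 0.177. With only 2 groups this nearness largely restates the size of the fall that chose the set, so it is a description alone. TMEFF2 (8.89 CPM), SPOCK1 (7.37 CPM), PPP1R1B (2.46 CPM) and GRIN3A (5.39 CPM) had inhibitor means under 10 CPM and passed the filter on the mean through the controls. These 5 genes were not on the proline, glutamate, ornithine, serine, NADPH or regulator lists.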

How the data were processed

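RNA of 8 libraries was analysed from whole-number counts per gene, deposited as 1 table per sample. The authors aligned reads to hg38 and made the counts with featureCounts, then used DESeq2, per the labels and the series text. Aligner, annotation, strand setting and versions: not given in the sources used here. Symbols, positions and lengths came from GENCODE release 44 on hg38, which held 58207 of the 58735 identifiers, and 0 rows named no gene. Counts were filtered with filterByExpr, scaled with TMM factors (0.960 to 1.059) and tested with edgeR 4.0.16 (glmQLFit, robust; glmQLFTest; Benjamini-Hochberg) in R 4.3.3 on the group alone. The common BCV, edgeR's biological coefficient of variation, was 7.2%. The SE is the absolute log2 change divided by the square root of F.

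On simulated counts of 15934 genes for this comparison, 15740 were left unchanged. The changed sets held 56 genes at 1.25-fold, 46 at 1.5-fold, 42 at 2-fold and 50 at 4-fold. The test recovered 48.2% of 1.25-fold changes, 73.9% of 1.5-fold, 90.5% of 2-fold and 100% of 4-fold changes. It also called 0.0381% of genes left unchanged. In the real comparison 58.0% of tested genes were called, and whether the rates above hold at that share was not tested. The genes, the related lists and the alternatives were chosen with earlier results of these data known, and the lists were written from general knowledge. Named are the 6 genes, up to 4 called genes per direction of each list by smallest p, any regulator, and the 6 profiles nearest PYCR1. Genes withheld from the text are not reported here, though list counts include them. EPRS1, ASNS, NADK2, SLC25A15 and ARG2 were named for their role after their values were seen. Alternatives were 3 other scalings (RLE, upper quartile, total counts), 2 other filters (none, or 1 CPM in 4 libraries), DESeq2 1.42.0, limma-voom (limma 3.58.1), the replicate number as a block, GC offsets (lowess, span 0.3), each library left out, and an adjusted p under 0.01. Added after seeing the data were canonical transcript lengths and GC offsets with the block.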

Additional observations from a re-analysis of the deposited data

Results flagged for a closer look

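In each group of 4 libraries, the highest and lowest values of the reported genes were compared with the other 3 by Dixon's ratio. Of 130 groups examined, 5 held a value past the 95% critical value, and chance flags about 1 in 20. In controls, SHMT2 was low in replicate 1 at 796.8 CPM (others 839.2 to 847.4), PPP1R15A was low in replicate 2 at 35.5 CPM (others 38.1 to 38.7) and CHAC1 was high in replicate 4 at 9.13 CPM (others 6.57 to 6.97). With inhibitor, replicate 4 was high for SPOCK1 at 9.06 CPM (others 6.69 to 7.01) and for PPP1R1B at 2.77 CPM (others 2.34 to 2.38), both among the profiles nearest PYCR1. No level of the 6 proline enzymes stood apart by this measure.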

How the results depend on the processing

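The directions of PYCR1 (−2.78 to −2.55), PYCR3 (−1.42 to −1.20), ALDH18A1 (−0.66 to −0.50) and OAT (0.56 to 0.78) and their calls held under all 19 alternatives. ALDH4A1 ranged from 0.19 to 0.38, and its call ended in 3 of them, so the number of proline enzymes called higher was 1 at an adjusted p under 0.01 and 1 to 2 with a library left out. The higher genes of the NADPH and NAD list numbered 2 with GC offsets, 2 with GC offsets and the block, and 1 at an adjusted p under 0.01. They numbered 2 to 5 with a library left out. Those of the serine list numbered 0 to 1 with a library left out. The higher genes of the regulator list numbered 6 with total counts. The cause was not tested. Total counts moved the share of higher genes among all calls from 51.3% to 63.6% and the median change of all genes from 0.02 to 0.13. On canonical transcript lengths, the mean ratio of OAT to ALDH18A1 was 0.66 in controls and 1.59 with inhibitor, in place of 0.44 and 1.08.

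Same-numbered libraries did not deviate together, with correlations of 0.131, −0.088, −0.053 and 0.084 for numbers 1 to 4. The numbers were therefore not taken as pairs. Between libraries, chi-square per degree of freedom was 1.74 for controls 1 and 2 and 1.69 for controls 3 and 4. It was 3.48 to 4.72 for the other control comparisons and 3.43 to 9.92 among inhibitor libraries. The fit treated all libraries of a group as independent, and the cause of this grouping was not tested. With the replicate number as a block, 9596 genes were called in place of 9549, and no call of a proline enzyme changed. Of 1273 values for 67 single genes, 1226 kept their direction and call, 27 lost the call, 7 gained it and 13 changed sign. The 13 belong to 5 genes of the regulator list, not called in the main comparison or at these values. CHAC1 (−0.12) was at 0.06 with GC offsets, with or without the block, and at −0.19 to 0.00 with a library left out. EIF2AK1 (0.04) was at −0.02 with GC offsets, with or without the block. EIF2AK2 (0.06) was at −0.09 with GC offsets, with or without the block, and at −0.05 to 0.14 with a library left out. EIF2AK3 (−0.03) was at 0.00 with upper-quartile scaling, 0.08 with total counts and −0.14 to 0.06 with a library left out. HIF1A (−0.10) was at 0.01 with total counts. The depth leaves PRODH without a usable comparison.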
